A study of Mus musculus with 12 samples.

Results

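The genes described here serve cholesterol synthesis and its control, and were followed in the distal ileum of BALB/c mice, a common inbred strain. They were chosen by symbol as 8 of the 45808 genes in the deposited table, and all 8 were expressed well above the filter on low values. Hmgcs1, Idi1, Fdft1, Sqle, Lss and Cyp51 encode enzymes of the pathway, and Srebf2 and Insig1 encode its regulators. No member encodes an uptake receptor, so uptake genes are described from a separate list. Polyadenylated RNA was sequenced from 6 samples treated with Porphyromonas gingivalis, an oral bacterium associated with periodontitis, and from 6 PBS (saline) controls. Both groups share the strain, and the labels used here name no route, dose, duration or age. They do not say that the libraries are from separate mice, so p-values measure the spread between these samples, which may be technical. Recovered depth was 6553306 to 9875045 reads in the P. gingivalis libraries and 7610970 to 10378841 reads in the PBS libraries.

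Cholesterol is built from acetyl-CoA through mevalonate, isoprenoid units, squalene and lanosterol. The transcription factor SREBP-2, the product of Srebf2, switches on nearly every enzyme of this route. When sterols are plentiful, INSIG proteins hold SREBP and its escort SCAP in the endoplasmic reticulum, and Insig1 is itself an SREBP target. The small intestine both takes up dietary and biliary cholesterol and makes its own, and bile acid reclaiming is a task of the distal ileum.

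Promoter sequences are shown for 2 enzymes and both regulators. The 2 enzymes are those, among the enzymes with a listed promoter, that held a match to a sterol element, so they do not stand for the rest. Whether these sequences have a part in the levels of the genes was not tested. They are the RefSeq GRCm38.p6 bases before the annotated start, ended where GENCODE M21 places an earlier start of the gene, written 5′ to 3′ on the strand of the gene. Capitals mark matches, on either strand, to CCAAT and to TCACNNCA, a loose form of the sterol regulatory element to which SREBP binds. The stricter form, TCACNCCAC, overlaps it and is also in capitals.
Hmgcs1, chr13:119690101-119690350, plus strand: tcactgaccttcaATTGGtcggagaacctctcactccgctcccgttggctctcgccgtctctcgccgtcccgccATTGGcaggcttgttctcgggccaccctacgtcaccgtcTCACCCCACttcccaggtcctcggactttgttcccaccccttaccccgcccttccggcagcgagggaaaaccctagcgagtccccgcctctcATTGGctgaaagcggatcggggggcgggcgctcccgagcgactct
Cyp51, chr5:4104747-4104947, minus strand: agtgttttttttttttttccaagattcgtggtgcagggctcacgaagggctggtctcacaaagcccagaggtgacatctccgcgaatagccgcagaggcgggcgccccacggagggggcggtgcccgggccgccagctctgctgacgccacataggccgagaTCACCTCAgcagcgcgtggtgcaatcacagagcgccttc
Srebf2, chr15:82147019-82147180, plus strand: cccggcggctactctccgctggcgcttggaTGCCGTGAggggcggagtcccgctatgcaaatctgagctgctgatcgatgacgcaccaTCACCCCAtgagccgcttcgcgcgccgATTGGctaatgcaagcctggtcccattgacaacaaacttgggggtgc
Insig1, chr5:28071162-28071362, plus strand: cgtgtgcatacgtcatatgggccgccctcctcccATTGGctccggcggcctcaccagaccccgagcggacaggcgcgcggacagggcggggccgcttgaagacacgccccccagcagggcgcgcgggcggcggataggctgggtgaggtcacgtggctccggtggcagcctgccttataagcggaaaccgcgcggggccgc

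Promoters were listed for 6 of the 8 members. Over the full 250 bases before the start, all 6 held CCAAT, against 33.9% of the 32851 promoters in the RefSeq table; in Cyp51 it lay beyond the end of the printed bases. All 6 also held the GC box GGGCGG, against 32.7% of all promoters. In Idi1 the last 105 of the 250 bases lie within the gene by GENCODE M21, and all its CCAAT and GC box matches fell there. The loose sterol element was found in 3 of the 6 (Hmgcs1, Cyp51 and Srebf2), against 11.4% of all promoters, and the strict form in Hmgcs1 alone, against 1.05%. In Hmgcs1 the strict match, TCACCCCAC, ran from base -137 to base -129 relative to the RefSeq start. In Cyp51 the loose match, TCACCTCA, ran from -88 to -81, and Srebf2 had 2 loose matches. These motifs were chosen with the sequences in view, and a match describes letters and not a bound site. Lss, Idi1 and Insig1 held CCAAT and no sterol element of either form in this window, although Lss and Idi1 moved with the other enzymes among the libraries.

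Before the group comparison, 3 libraries must be set apart. P. gingivalis replicates 1 and 5 and PBS replicate 6 held almost no Fabp6, the bile acid binding protein that defines the ileal epithelium, with 2.52, 16.0 and 4.32 normalized counts in that order, against 11246 to 69383 in the other 9. All 5 distal ileum markers (Fabp6, Slc10a2, Slc51a, Slc51b and Fgf15) lay lower in these 3 libraries than in any of the other 9, with mean levels of 4.67 to 5.53 against 9.61 to 11.58 on the log2(normalized count + 1) scale. All 5 upper small intestine markers (Fabp1, Lct, Gata4, Rbp2 and Apoa4) lay higher, at 13.49 to 13.75 against 4.64 to 11.87. Of these defining markers Fgf15 was at 0 in P. gingivalis replicates 1 and 5, and Gata4 in P. gingivalis replicate 6. None of the smooth muscle, B cell and proliferation markers lay wholly to one side in the 3 libraries. The 8 general gut epithelium markers were present in every library, with mean levels of 12.68 to 13.12 in the 3 libraries and 12.68 to 13.59 in the other 9. The 3 libraries are labelled distal ileum like the rest, and the group differences of the members and the pathway lists are given with and without them.

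The 8 genes showed no difference between P. gingivalis and PBS beyond the spread between libraries. By limma with Benjamini-Hochberg adjustment over all 15025 genes tested, 0 of the 8 passed an adjusted p of 0.05 in either direction, where the background was 0% higher and 0% lower. At an unadjusted p under 0.05 there were also 0 members, and 560 of all genes. The edgeR and DESeq2 tests on recovered reads called 0 members as well, with backgrounds of 0% in edgeR in each direction and, in DESeq2, 0.0164% higher and 0.164% lower. The groups overlapped for all 8 members, and over all genes 0.0732% lay wholly below and 0.0932% wholly above PBS. All 6 enzymes had lower means on the log2 scale after P. gingivalis and both regulators higher ones, while 51.1% of all genes had a negative difference. The median difference of the 8 was -0.14, against -0.0039 for all genes tested. Leaving out P. gingivalis replicate 6 moved the limma background to 0.00668% higher and 0.347% lower, with 0 members among the calls. Without the 3 libraries low in Fabp6 the median of the 8 was 0.05.

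The mevalonate enzymes open the route. Hmgcs1, the cytosolic HMG-CoA synthase, lies on chromosome 13 from 119690379 to 119708260 on GRCm38. Its lowest, median and highest normalized counts were 1360.1, 3243 and 3979 after P. gingivalis, against 1721, 3196 and 4819 in PBS. The PBS group held the highest library and the P. gingivalis group the lowest, and the ranges overlapped. The means were 2868 ± 1065 after P. gingivalis and 3203 ± 1000.4 in PBS (SD, n = 6 each), a log2 difference of -0.20 (SE 0.29, 95% interval -0.81 to 0.41, limma adjusted p = 0.992, exact permutation p = 0.571). Idi1, the isomerase that balances the 5-carbon isoprenoid units, lies on the same chromosome from 8885501 to 8892451. It stood at 131.4, 224 and 308 after P. gingivalis, against 153 as lowest, 241 as median and 314 as highest in PBS. Its log2 difference was -0.17 (SE 0.23, 95% interval -0.66 to 0.33, limma adjusted p = 0.992, exact permutation p = 0.539).

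The squalene and sterol enzymes gave the same picture. Fdft1, the squalene synthase that commits carbon to sterols, lies on chromosome 14 from 63145150 to 63179578. Its lowest, median and highest values were 304, 667 and 829.6 after P. gingivalis, against 351, 647 and 1152 in PBS. It had the most negative difference of the 8 members, -0.29 (SE 0.32, 95% interval -0.97 to 0.39, limma adjusted p = 0.992), and its medians ran the other way, with the P. gingivalis median slightly above that of PBS. Sqle, the squalene epoxidase and a rate-limiting oxygen-dependent step, lies on chromosome 15 from 59315077 to 59331192. It stood at 318, 749 and 825 after P. gingivalis, against 366, 649 and 1020.4 in PBS. Again the P. gingivalis group had the higher median and PBS the highest library, and the log2 difference was -0.13 (SE 0.29, 95% interval -0.75 to 0.49, limma adjusted p = 0.992).

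Lss, the lanosterol synthase that closes the ring system, lies on chromosome 10 from 76531588 to 76557138. It stood at 309, 593 and 629 after P. gingivalis, against 286, 492 and 758 in PBS. Its group means were nearly equal, at 508 ± 154 after P. gingivalis and 506 ± 155 in PBS (SD, n = 6 each), and its log2 difference was -0.00055 (SE 0.24, 95% interval -0.52 to 0.52, limma adjusted p = 0.99976). Cyp51, the sterol demethylase that acts on lanosterol, lies on chromosome 5 from 4081145 to 4104746. It stood at 413, 909 and 1223 after P. gingivalis, against 512, 847 and 1410.2 in PBS, a difference of -0.16 (SE 0.29, 95% interval -0.78 to 0.46, limma adjusted p = 0.992). For the 6 enzymes the 95% intervals reached from -0.97 to 0.52 at their widest.

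Of the regulators, Srebf2 lies on chromosome 15 from 82147181 to 82205379. Its lowest, median and highest values were 674, 729 and 909 after P. gingivalis, against 629, 699 and 834 in PBS, a difference of 0.09 (SE 0.10, 95% interval -0.11 to 0.30, limma adjusted p = 0.992). Its SD over the 12 libraries was 0.16 log2 units, the narrowest of the 8 members, against a median of 0.26 over all genes tested and 0.44 (Idi1) to 0.62 (Fdft1) for the enzymes. Over the 9 libraries with Fabp6 the SD was 0.17 for Srebf2 and 0.23 to 0.35 for the enzymes. Insig1 lies on chromosome 5 from 28071363 to 28078662. It stood at 650.5, 872 and 1046 after P. gingivalis, against 619, 708 and 1277 in PBS, a difference of 0.14 (SE 0.17, 95% interval -0.21 to 0.50, limma adjusted p = 0.992). The SD of Insig1 was 0.31 over the 12 libraries and 0.32 over the 9 with Fabp6, there above all enzymes but Fdft1. PBS replicate 1 alone gave the value of 1277, and without it the Insig1 difference was 0.29.

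**Figure D1:**
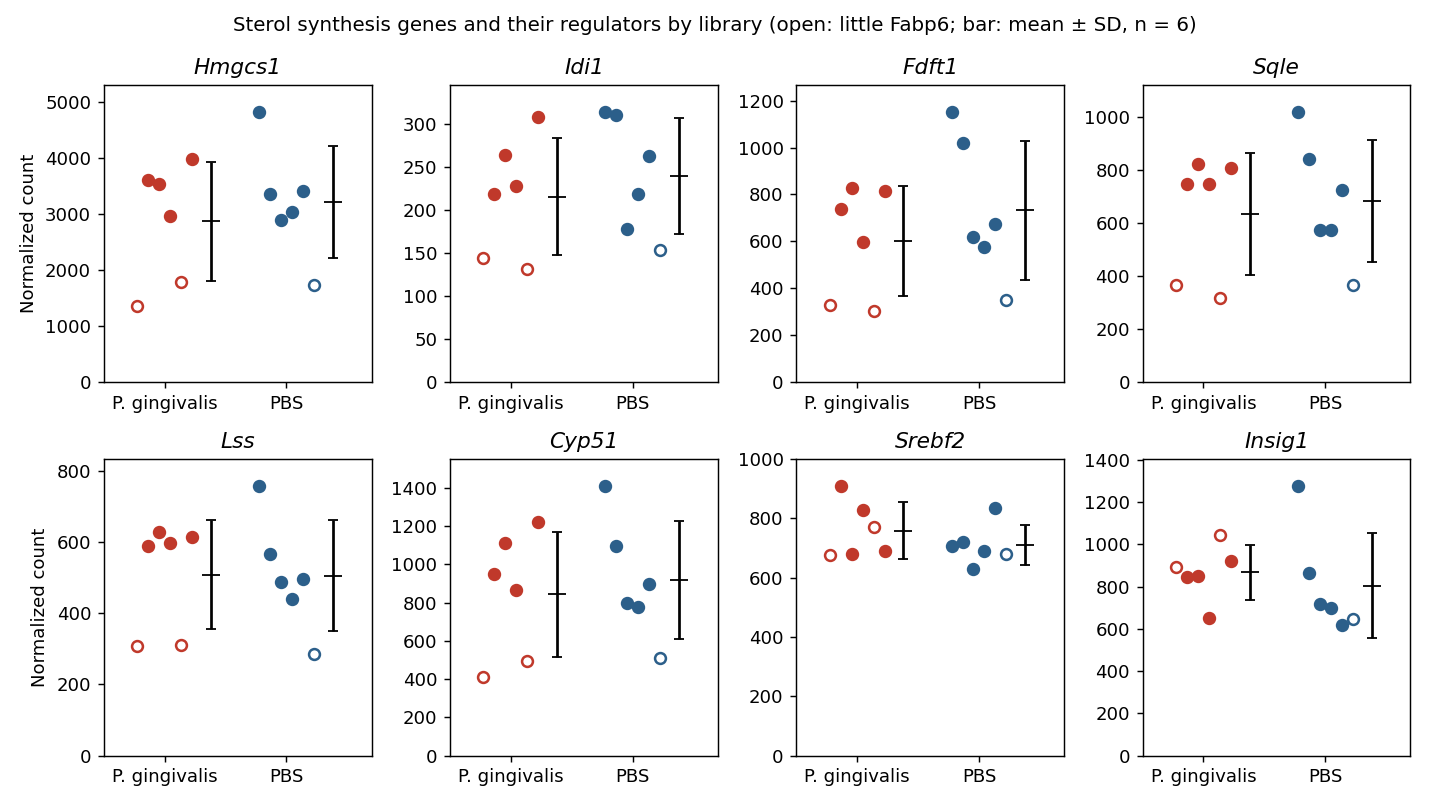
Normalized counts of the 8 genes in each library, P. gingivalis left and PBS right of each panel; open circles are the 3 libraries with little Fabp6 and bars are mean ± SD (n = 6). In the 6 enzyme panels the open circles lie below all other libraries of either group, whereas for Srebf2 and Insig1 they lie among them.

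Per kilobase of annotated exon in GENCODE M21, Hmgcs1 stood highest of the 8, at 624 ± 232 normalized counts per kilobase after P. gingivalis and 697 ± 218 in PBS (SD, n = 6 each). Insig1 came next, at 281 ± 41.8 after P. gingivalis and 259.9 ± 79.99 in PBS. Lss stood lowest, at 47.1 ± 14.3 after P. gingivalis and 46.9 ± 14.4 in PBS, over an exon length of 10787 bases that counts every annotated isoform. Counting is not stated to use strand, and exons of Fdft1 overlap those of Ctsb and exons of Cyp51 those of Akap9 on the opposite strand. Reads from these overlaps cannot be told apart. Fdft1 shares 774 bases with Ctsb, which averaged 3207 normalized counts, well above Fdft1 itself, and Cyp51 shares 166 bases with Akap9, which averaged 3016. Idi1 shares 684 identical bases with the gene model Gm13502, which averaged 8.87 normalized counts. Exons on the opposite strand also overlap those of Hmgcs1 (Gm48342, 462 bases), Idi1 (Gm48574, 323 bases) and Lss (4930483K19Rik, 152 bases). Of these, 4930483K19Rik averaged 0.0865 normalized counts, and Gm48342 and Gm48574 have no listed values.

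The split among the libraries was far wider than that between the groups. Each of the 6 enzymes was lower in all 3 libraries with little Fabp6 than in every one of the other 9, where 4.93% of the 15025 genes tested lay wholly below in the same way and 6.46% wholly above. This split was made from Fabp6 after earlier results were known, so it is described without a test. Hmgcs1 stood at 1360.1 and 1781 in P. gingivalis replicates 1 and 5 and at 1721 in PBS replicate 6, against 2882 to 4819 in the other 9. The ratio of the medians was 0.505 for Hmgcs1, and over the 6 enzymes it ran from 0.446 for Fdft1 to 0.546 for Idi1. Sqle ran from 318 to 367 in the 3 libraries, against 573 to 1020.4 in the other 9, and Cyp51 from 413 to 512, against 778 to 1410.2. The distal ileum markers given above lay lower with these enzymes, and so did Krt8 and Krt19, 2 of the 8 gut epithelium markers, while the upper small intestine markers lay higher. Their part in the result was not tested. In tissue RNA, fewer cells of a type and less RNA per cell cannot be told apart.

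The regulators did not share this split. Srebf2 ran from 674 to 770.4 in the 3 libraries with little Fabp6, against 629 to 909 in the other 9, and the ratio of medians was 0.961. Insig1 ran from 646 to 1046, against 619 to 1277, with a ratio of medians of 1.06. As a result the ratio of Insig1 to Hmgcs1 normalized counts was 0.375 to 0.657 in the 3 libraries and 0.182 to 0.265 in the other 9, with no overlap. These are ratios of levels that are not corrected for length, and they restate the split of Hmgcs1 given above, so they are no separate result. No other enzyme was used for them, and how many other pairs of genes separate in this way was not examined. Insig1 thus overlapped between the sets where the enzymes did not.

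With the 3 libraries left out, 4 P. gingivalis and 5 PBS libraries remained, and 5 of the 6 enzyme differences were positive. Hmgcs1 averaged 3516 ± 422 after P. gingivalis (SD, n = 4) and 3499.8 ± 769 in PBS (SD, n = 5), a log2 difference of 0.02 (SE 0.16, 95% interval -0.33 to 0.38, limma adjusted p = 0.9995). Of the 8 members, 7 then had a positive difference, and 0 passed in limma (adjusted p = 0.9995 for each, 0 members at an unadjusted p under 0.05), where the background was 0.00667% higher and 0% lower. Fdft1 alone stayed negative, at -0.07 (SE 0.21). Lss had the highest of these differences, 0.17 (SE 0.14, 95% interval -0.14 to 0.48). The 4 P. gingivalis libraries held Lss between 588 and 629, and the 5 PBS libraries between 440.4 and 758. Within the 3 libraries low in Fabp6 there was 1 PBS library, too few for a comparison. With little Fabp6 as a term in the model, an option added after the values were seen, differences of the 6 enzymes ran from -0.09 for Fdft1 to 0.16 for Lss.

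**Figure D2:**
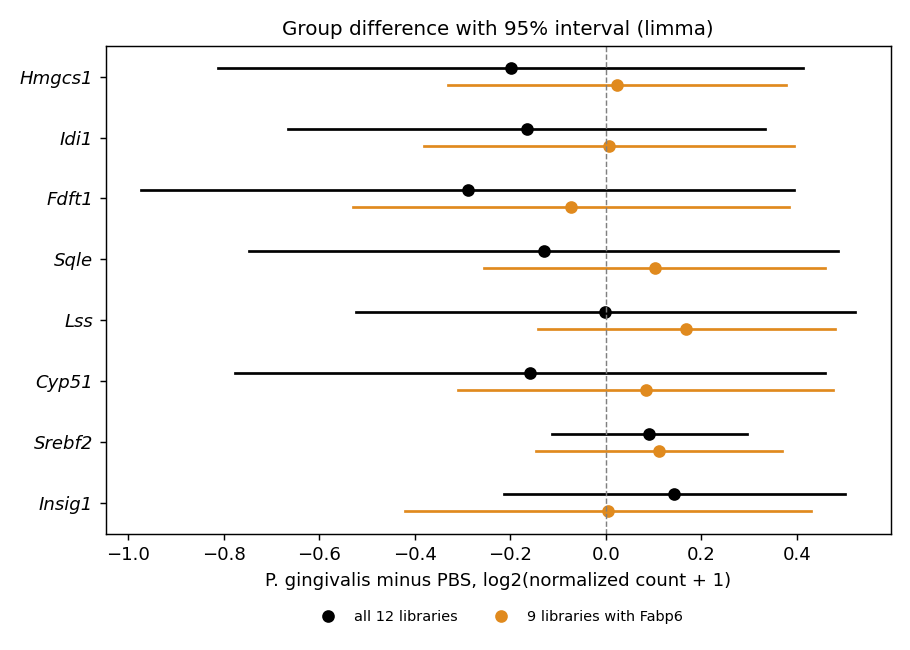
Difference of P. gingivalis from PBS in log2(normalized count + 1) on the horizontal axis, by gene, with its 95% limma interval, for all 12 libraries (black) and for the 9 with Fabp6 (orange). All 16 intervals span 0, and the enzyme intervals are narrower without the 3 libraries low in Fabp6.

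Because the libraries fell into separate clusters, correlations among the members are given within the 9 libraries with Fabp6, in units of log2(normalized count + 1). Of the 28 pairs, 19 had a Benjamini-Hochberg adjusted exact permutation p under 0.05 for Pearson's r, and 12 for Spearman's rho. How many pairs of other genes would pass in these 9 libraries was not examined, so the counts do not show a trait particular to the members. Between 2 enzymes r ran from 0.62 (Idi1 and Lss) to 0.93 (Sqle and Cyp51), with rho from 0.62 to 0.92, and 14 of 15 pairs passed for r. Insig1 followed the enzymes here, with r from 0.61 to 0.89 and rho from 0.65 to 0.83, and 5 of 6 pairs passed for r. Srebf2 did not follow them, with r from -0.15 to 0.15, rho from -0.03 to 0.17, and exact permutation adjusted p of 0.818 to 0.973 for r. Without the 2 libraries farthest from the median, r ran from 0.50 to 0.94 between enzymes and from 0.57 to 0.81 between enzymes and Insig1. Over all 12 libraries, where the split by Fabp6 enters, Insig1 did not follow the enzymes, with r from 0.15 to 0.25. There r was 0.89 to 0.98 between enzymes and 0.07 to 0.20 between enzymes and Srebf2.

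The calls rest on PBS replicate 1, the library with the highest count of all 6 enzymes and of Insig1. Without it, 0 of the 28 pairs passed, although r was still 0.50 to 0.87 between enzymes and 0.48 to 0.80 between enzymes and Insig1. Leaving out any other of the 9 libraries left 14 to 20 pairs. The libraries share depth scaling by 1 size factor each, which was not varied in these correlations. Relations of the 8 members to Fabp6 and to Fabp1 within the same 9 libraries were added after the values were seen. Of these 16 relations, 0 passed for r (lowest exact permutation adjusted p = 0.123, Fdft1 and Fabp6, r = 0.82, rho = 0.73, r = 0.71 without the 2 farthest libraries). Idi1 and Fabp1 passed for rho alone (rho = -0.88, exact permutation adjusted p = 0.0492, r = -0.68, exact permutation adjusted p = 0.160, and r = -0.76 without the 2 farthest libraries).

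**Figure D3:**
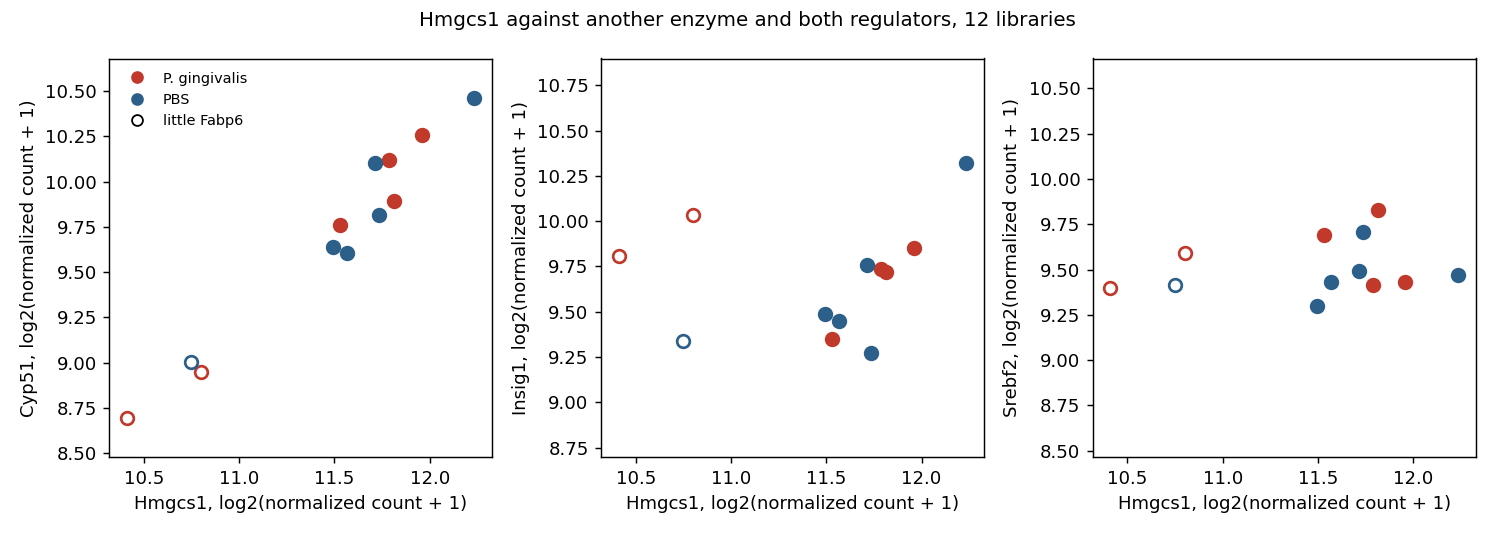
Hmgcs1 on the horizontal axis against Cyp51, Insig1 and Srebf2 on the vertical axis, all as log2(normalized count + 1), 1 point per library, open where Fabp6 was low. Cyp51 rises with Hmgcs1 through all 12 libraries, Insig1 does so among the filled points while the open points lie to the left, and Srebf2 stays nearly level.

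The rest of the pathway was read from lists taken from textbook knowledge. Of 17 further mevalonate and sterol synthesis genes, all tested, 0 were higher and 0 lower in limma (0 also at an unadjusted p under 0.05), and 15 had negative and 2 positive differences, with a median of -0.07. The 4 with the smallest p were Ebp, a sterol isomerase, at -0.15 (SE 0.11), Ggps1, the geranylgeranyl diphosphate synthase, at -0.13 (SE 0.10), Tm7sf2, a sterol reductase, at -0.38 (SE 0.30), and Sc5d, a sterol desaturase, at -0.15 (SE 0.14). All 4 had a limma adjusted p of 0.992. Without the 3 libraries low in Fabp6, 10 of the 17 were positive and 7 negative, with a median of 0.03.

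In those 3 libraries, 8 of the 17 lay wholly below the other 9, or 47.1%, against 4.93% of all genes tested. Among them were Pmvk, Mvd, Fdps, Nsdhl, Hsd17b7, Tm7sf2 and 0610007P14Rik. Tm7sf2 had the lowest ratio of medians among the 8, at 0.440, with 103 to 144 against 223 to 388. The rest of the 17 overlapped between the sets, among them Acat2, Mvk, Ggps1, Msmo1, Lbr, Ebp, Sc5d and Dhcr7.

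**Figure D4:**
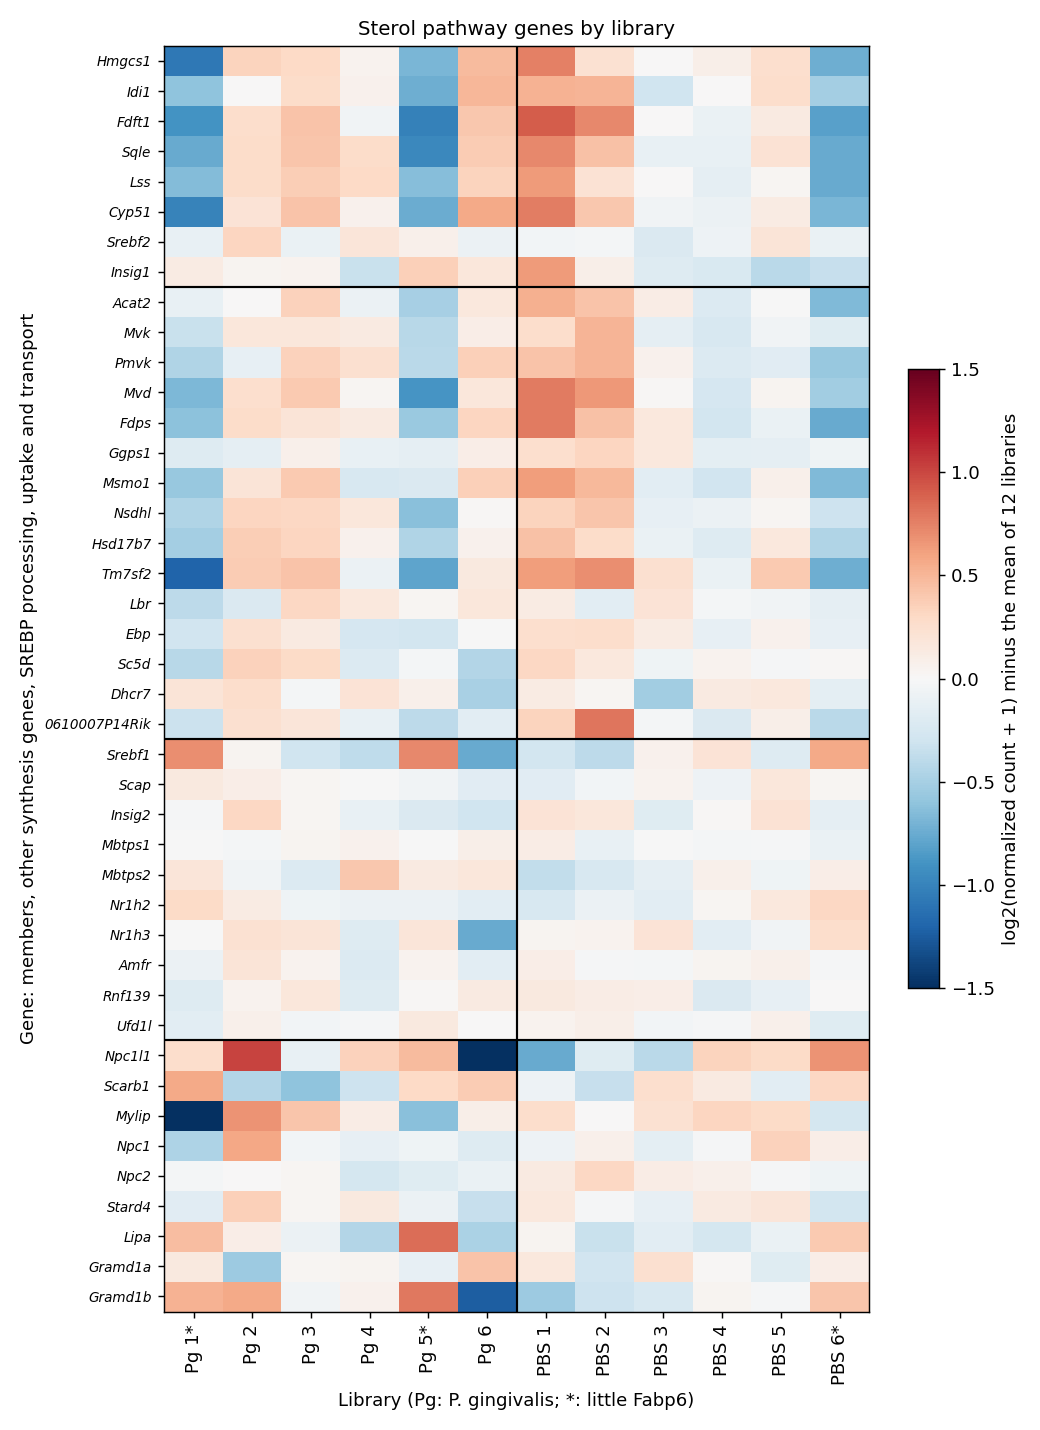
Each row is a gene, of the members and of 3 pathway lists less the genes not reported, and each column a library, P. gingivalis (Pg) left and PBS right; colour gives log2(normalized count + 1) minus the mean of that gene over the 12 libraries, and values beyond 1.5 in either direction take the end colour. The columns marked * are low in Fabp6 and are blue for the 6 enzymes and much of the synthesis list. Srebf1, the 1 gene of 10 in the SREBP processing list to lie wholly above there, is red in the same 3 columns.

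Among 10 genes of SREBP processing and regulation, 0 passed in limma (0 at an unadjusted p under 0.05), with 5 positive and 5 negative differences. Mbtps2, the site-2 protease that frees SREBP, differed by 0.21 (SE 0.12), Insig2 by -0.10 (SE 0.11), Mbtps1, the site-1 protease, by 0.05 (SE 0.07) and Nr1h3, the sterol sensor LXR alpha, by -0.12 (SE 0.15), each with a limma adjusted p of 0.992. Srebf1, which encodes the SREBP form tied to fatty acid synthesis and is named here after its values were seen, was the gene of this list that lay wholly above in the 3 libraries low in Fabp6. It ran from 943 to 1050.4 there, against 378 to 735 in the other 9. Scap and both proteases overlapped. Without the 3 libraries, 5 of the 10 group differences were positive and 5 negative, with a median of -0.01.

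Of 12 uptake and transport genes, 0 passed in limma, with 1 at an unadjusted p under 0.05, and 9 differences were negative. That gene was Npc2, a lysosomal cholesterol carrier, at 782 ± 60.5 after P. gingivalis and 888 ± 82.3 in PBS (SD, n = 6 each), a difference of -0.18 (SE 0.08, limma adjusted p = 0.992, exact permutation p = 0.026). Mylip, a ubiquitin ligase that limits lipoprotein uptake, differed by -0.28 (SE 0.30) and Gramd1b, a sterol transfer protein, by 0.22 (SE 0.29), each with a limma adjusted p of 0.992. In the 3 libraries low in Fabp6, 3 of the 12 genes (25.0%) lay wholly below, against 4.93% of all genes tested. Wholly above lay 1 of the 12 (8.33%), near the 6.46% of all genes tested. Mylip was among those below, at 68.1 to 163 against 197 to 314 in the other 9. Lipa, the lysosomal lipase, named after its values were seen, was the gene above, at 914 to 1248 against 500.2 to 742. Npc1l1, the brush border cholesterol importer, overlapped, with 4149.5 to 5496 against 899 to 6982. Leaving the 3 libraries out gave 5 positive and 7 negative group differences over the 12 genes, with a median of -0.01.

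Of 8 efflux and esterification genes, 0 passed in limma (0 at an unadjusted p under 0.05), with 4 positive and 4 negative differences. Soat1 and Soat2, which esterify cholesterol, differed by 0.17 (SE 0.12) and -0.17 (SE 0.37). Abca1, a cholesterol exporter, differed by 0.16 (SE 0.23) and Abcg5, part of the sterol pump at the brush border, by -0.12 (SE 0.28), and none of the 8 lay wholly to one side in the 3 libraries. Without the 3 libraries low in Fabp6, 3 were positive and 5 negative, with a median of -0.08. Of 9 fatty acid synthesis genes, which SREBP proteins also control, 0 passed in limma, with 7 at an unadjusted p under 0.05, 8 negative differences and a median of -0.90. Of the 9, 7 were negative without the 3 libraries, with a median of -0.83. Acaca, an acetyl-CoA carboxylase, averaged 581 ± 146 after P. gingivalis and 1120.3 ± 365 in PBS (SD, n = 6 each), which is -0.92 on the log2 scale (SE 0.23, adjusted p = 0.368 in limma). Further, the fatty acid synthase Fasn differed by -1.62 (SE 0.28), Thrsp by -3.54 (SE 0.63) and the desaturase Scd1 by -4.82 (SE 0.87), these 3 with a limma adjusted p of 0.165. DESeq2 called these 4 genes lower. Limma called Fasn, Thrsp and Scd1 lower without P. gingivalis replicate 6 and Fasn lower without PBS replicate 5. The 8 fat cell markers, of which 5 were at 0 in some library, had mean levels of 2.14 to 7.82 after P. gingivalis and 7.22 to 9.50 in PBS on the log2 scale, and their part in these differences was not tested. Adipoq, Plin1, Cfd, Lep and Retn were at 0 in P. gingivalis replicates 1, 2 and 3. Whether fatty acid genes and the members differ from each other in their response was not tested.

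**Figure D5:**
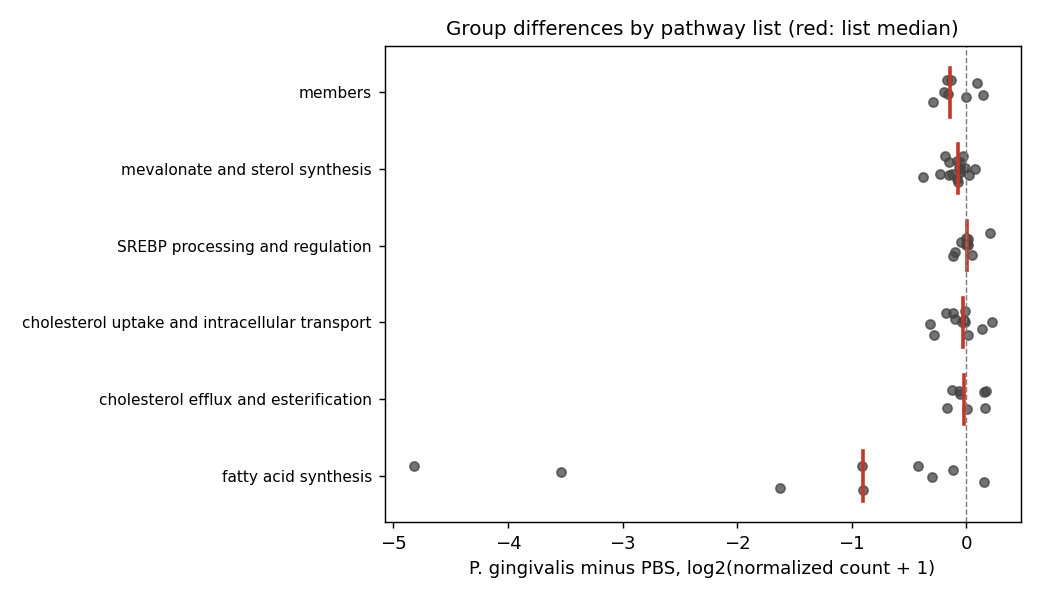
Difference of P. gingivalis from PBS in log2(normalized count + 1) on the horizontal axis for every gene of the members and 5 pathway lists, 1 point per gene, with the list median in red. The members and the 4 cholesterol lists lie within 0.38 of 0 on either side, and fatty acid synthesis genes reach -4.82.

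Among the 6 tested genes outside the members whose values over the 12 libraries were most like the mean of the members' standardized log2 values were Car12, Hsd17b7, Gm2061, Suox and Abcg2. Pearson's r was 0.97 for Car12, a carbonic anhydrase, and 0.95 for Abcg2, a membrane exporter, with the other 4 between. These are descriptions over libraries that share the split by Fabp6. Within the 9 libraries with Fabp6, r ran from 0.84 for Hsd17b7, a sterol reductase, to 0.89 for Suox, the sulfite oxidase. All 6 genes lay wholly below in the 3 libraries low in Fabp6, as did 4.93% of all genes tested. They were picked by likeness to the members over all 12 libraries, where the enzymes split the same way. Lying below was thus favoured by that choice and is no separate result. Suox stood at 90.8 to 143 in the 3 libraries, against 543 to 2730 in the other 9. Of the 17 further synthesis genes, 7 were among the 100 most alike of 15017 genes.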

How the data were processed

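The deposited table holds a normalized signal per gene and library, that is, gene counts scaled by the authors with DESeq2 size factors, as the table's name and its values show. HISAT2, Cufflinks, FastQC and DESeq2, with the build GRCm38 (mm10), are listed in the submitters' processing notes, without a counting method, strand setting or annotation. Values were whole multiples of 1 step per library, and dividing by it gave whole reads for 100.0% of values within 0.001 reads. Library preparation used a TruSeq kit, per the labels. No 2 libraries were copies (lowest chi-square over its degrees of freedom, 6.54). Genes whose mean normalized count reached 10 were tested (15025) on log2(normalized count + 1) in limma 3.58.1 (R 4.3.3; trended variance prior), two-sided, with Benjamini-Hochberg adjustment at 0.05. Log2 differences understate changes of low genes. Beside it stood the exact permutation test over 924 labelings, two-sided, whose smallest p is 0.00216. On recovered reads edgeR 4.0.16 called 0 genes and DESeq2 1.42.0 called 3 higher and 30 lower. Correlations used exact permutation, two-sided, adjusted over 28 pairs or 16 relations. Exon lengths, overlaps and gene positions came from GENCODE M21, shared transcript stretches from BLAST 2.17.0. The fits were tested on simulated data.

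Named genes were the 8 members, genes past the threshold or otherwise the 4 with the smallest p of each pathway list, and the 6 most alike genes. Some genes of the lists count in their totals and are not reported here by name. The members and lists were chosen with earlier results of these data known. Alternatives covered pseudocounts, filters, scalings, a replicate block, weights, edgeR, DESeq2 and left-out libraries. A term for little Fabp6, left-out libraries in the correlations, and the relations to Fabp6 and Fabp1 were added after seeing the data.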

Additional observations from a re-analysis of the deposited data

Results flagged for a closer look

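Insig1 in PBS replicate 1 stood at 1277 normalized counts, against 619 to 865 in the other 5 PBS libraries, a gap that only just passed the limit for 6 samples. It was the only such value in 56 groups of 6 libraries, taken over 28 named genes, where chance gives about 1 in 20 groups, so such values were fewer than chance alone would give. The same library held the highest counts of the 6 enzymes, though their gaps to the next PBS library were smaller relative to the range of their group.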

How the results depend on the processing

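No alternative called any of the 8 members. Over 26 alternatives, limma, edgeR or DESeq2 adjusted p-values of the members ran from 0.742 to 0.99999, and 22 of 208 member differences changed sign. The other limma filters and the replicate block cannot change a member's difference, so the 208 include values that could not change sign. Without the 3 libraries with little Fabp6 the differences were 0.083 for Cyp51, 0.023 for Hmgcs1, 0.0068 for Idi1, 0.17 for Lss and 0.10 for Sqle, and 1 member had a lower mean. With little Fabp6 as a term, chosen after seeing the data, they were 0.023 for Cyp51, 0.16 for Lss and 0.056 for Sqle, with 3 members lower. Lss was 0.0067 with upper-quartile rescaling, 0.0058 in edgeR and 0.0064 in DESeq2. Srebf2 was -0.010 without the 2 libraries with much 18S ribosomal RNA, P. gingivalis replicates 2 and 4. Both are in the treated group, and they held the highest Srebf2 counts of that group, 909 and 826. The cause of these sign changes was not tested. Leaving out 1 library at a time gave -0.37 to -0.0047 for Hmgcs1, -0.28 to -0.04 for Idi1, -0.48 to -0.12 for Fdft1, 0.04 to 0.14 for Srebf2, 0.08 to 0.29 for Insig1, -0.29 to 0.02 for the median of the 8, -0.31 to 0.026 for Cyp51, -0.15 to 0.13 for Lss, -0.30 to 0.050 for Sqle, 3 to 6 members lower, 0 to 1 genes higher, 0 to 52 genes lower, 0 to 3 pathway genes called and 0 to 20 correlated pairs, 0 being without PBS replicate 1; the 52 came without P. gingivalis replicate 6. Of all genes, 1 was lower with a pseudocount of 5, 1 higher and 19 lower with array weights, 3 higher and 30 lower in DESeq2, and 1 higher without the 3 libraries with little Fabp6. Pathway genes called numbered 2 with array weights and 4 in DESeq2, all of fatty acid synthesis. Deviations of same-numbered libraries from their group means correlated at -0.54 to 0.08, so no pairing by the numbers in the titles was seen. The libraries low in Fabp6 carry different numbers in the 2 groups, so this check cannot show that no pairing exists. With the replicate block Hmgcs1 differed by -0.20 and 0 genes were called.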
